A study of Rattus norvegicus with 10 samples.

Results

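The genes described here encode the machinery by which secretory vesicles dock, are primed and fuse with the plasma membrane, and were measured in the rat supraoptic nucleus after knockdown of Opn3, which encodes the light-sensitive receptor opsin 3. They were chosen by a rule on names that uses no measured value, but earlier results of these data were known when it was set. The names were those of synaptotagmins (Syt), Doc2 proteins, syntaxins (Stx), syntaxin-binding proteins (Stxbp), vesicle-associated membrane proteins (Vamp), Snap proteins, complexins (Cplx), Rab3 GTPases, Unc13, Cadps and Rims proteins, Sv2 proteins and synapsins (Syn). Of 32623 genes in the table, 75 had such a name, and 73 of them reached a mean of 10 normalized read counts over the 10 libraries, as did 15597 genes in all. The members below that level were Syt8, with 2 to 12 reads per library, and Cplx4, with 2 to 9 reads. Male Sprague Dawley rats of 250 to 300 g received an adeno-associated virus carrying a short hairpin RNA against Opn3 (shOpn3) in the supraoptic nucleus of one side, and a virus whose hairpin has no target (shControl) in that of the other side. After 2 weeks each nucleus was punched from frozen sections and its RNA was sequenced alone, which gave 5 shControl and 5 shOpn3 libraries. The labels name no promoter and no age, and both groups carried a virus, so no uninjected nucleus was compared. A punch holds neurons, glia and vessels together.

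In a neuron, a vesicle SNARE protein of the Vamp family winds together with syntaxin and Snap25 on the plasma membrane, and the complex pulls the membranes into fusion. Munc18-type syntaxin-binding proteins and Unc13 proteins guide its assembly, complexins hold it ready, and calcium-binding synaptotagmins and Doc2 proteins sense the calcium that triggers fusion. The supraoptic nucleus contains the magnocellular neurons, which store vasopressin and oxytocin in large dense-core vesicles and release them from axon terminals in the posterior pituitary and from their dendrites. Cadps proteins, also called CAPS, serve mainly in the priming of such dense-core vesicles.

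The libraries held 33402693 to 39958578 reads assigned to genes in shControl and 33158341 to 37263244 in shOpn3. Opn3, the target, had normalized counts of 719, 694, 841, 1007 and 261 in shControl libraries 1 to 5, against 290, 193, 159, 154 and 145 in shOpn3 libraries 1 to 5. The shControl library 5 thus lay inside the shOpn3 range, and the other 4 shControl libraries lay above it. The shOpn3 mean of Opn3 was 26.7% of shControl (log2 fold change -1.82, SE 0.320, limma adjusted p = 0.00226). Avp and Oxt, the vasopressin and oxytocin genes, had log2 fold changes of -2.35 (adjusted p = 0.00269) and -2.21 (adjusted p = 0.000915) in the same limma fit. Of 12 magnocellular markers, Avp and Oxt among them, 11 fell. The summed normalized count of the 12 ran from 100643 to 228118 in shControl and from 48908 to 88044 in shOpn3. Avp and Oxt weigh heavily in that sum, with means of 56039 and 26947 in shControl and 11972 and 5563 in shOpn3. All 12 oligodendrocyte markers fell (sums 787371 to 1331548 against 272474 to 508290), and 13 of 14 microglial markers rose (17515 to 21326 against 29109 to 57171). General neuronal markers overlapped (111485 to 148180 against 98487 to 173938; 1 of 11 higher and 3 lower), as did those of astrocytes (324861 to 420417 against 367671 to 515241; 4 of 12 higher and 1 lower) and of endothelium and blood (45216 to 80198 against 49895 to 73813; 0 of 8 called by limma). For astrocytes only shOpn3 library 2 lay within the shControl range, and all other shOpn3 sums lay above it. No marker of these lists was at 0 in all libraries. In bulk tissue fewer cells of a type and less RNA per cell cannot be told apart, and the part of these cell-type differences in the results below was not tested.

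Knockdown of Opn3 was accompanied by changes in both directions among the release genes, with a median change near that of all genes. Called means an adjusted p under 0.05 in a limma fit to log2(normalized count + 1) over all 15597 genes. By this rule 10 of the 73 members were higher in shOpn3, 9 were lower, and 54 were not called. The 19 called members are 26.0% of those tested, beside 18.8% of all genes tested, of which 10.4% were called higher and 8.48% lower. The median log2 fold change was -0.01 over the members and -0.02 over all genes, and single members ranged from -1.04 for Cadps2 to 0.94 for Doc2a. Cadps2 alone changed by 1 or more on that scale. The groups did not overlap for 8 members (10.96%; 3 higher and 5 lower), 7 of them called, beside 15.3% of all genes, and all 5 pairs of same-numbered libraries differed in one direction for 28 members (38.4%), beside 39.4% of all genes. With the replicate number as a block, 26 of the 73 members were called (35.6%; 13 higher and 13 lower), beside 30.3% of all genes. The count was 19 without shControl library 5, whose Opn3 level lay in the shOpn3 range (9 higher and 10 lower, 17 of them shared with the 19), and the calls lost without it were Syt3 (limma adjusted p = 0.0673) and Syn1 (adjusted p = 0.0822). It dropped to 8 without both libraries numbered 2 and to 7 without both numbered 3. Calls over all 15597 genes dropped as well, from 2940 to 1895 and 1604 in these 2 fits, and were 2901 without shControl library 5. The p-values measure the spread between these nuclei, which no label ties to single rats.

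**Figure D1:**
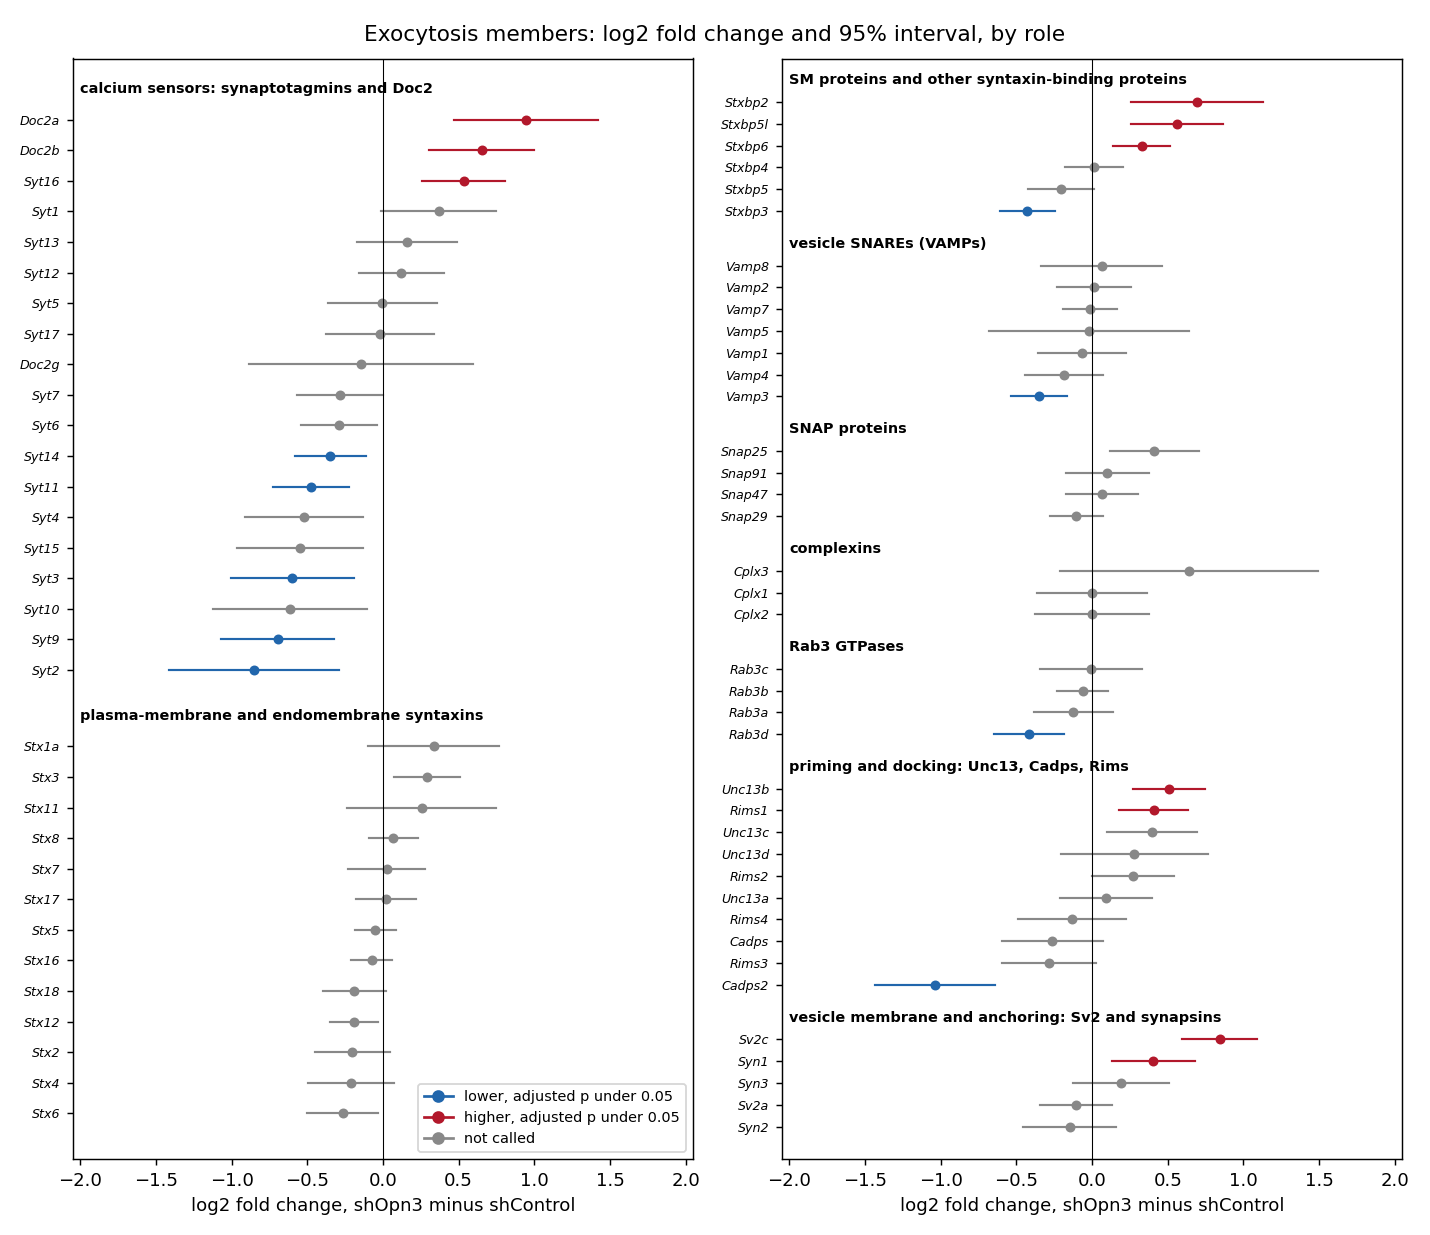
Log2 fold change (shOpn3 minus shControl) of 71 of the 73 tested members, ordered within each role, with 95% confidence intervals from the limma fit. Colours mark members called higher, called lower or not called: the values run from -1.04 (Cadps2) to 0.94 (Doc2a), and the syntaxins, the Snap proteins and the complexins hold no called member.

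The main neuronal forms of Vamp and complexin gave no call. Vamp2, the main vesicle SNARE of forebrain neurons, had normalized counts of 21490, 23360, 25771, 24012 and 19208 in shControl and 24096, 27011, 23199, 18326 and 22634 in shOpn3. The groups overlapped almost fully, with a log2 fold change of 0.01 (95% interval -0.23 to 0.26, limma adjusted p = 0.948). Its close relative Vamp1 likewise overlapped, at 7732 ± 1161 (SD, n = 5) against 7403 ± 1240 normalized counts (log2 fold change -0.07, limma adjusted p = 0.778). The complexins Cplx1 and Cplx2, which bind the assembled SNARE complex, had nearly equal group means (4846 against 4819, and 5524 against 5680), with 95% intervals from -0.37 to 0.36 and from -0.38 to 0.37. Sv2a, a vesicle glycoprotein and the binding site of the antiepileptic drug levetiracetam, had 13335 to 18157 against 12250 to 16820 (-0.10, interval -0.34 to 0.14). The intervals of Cplx1, Cplx2, Sv2a and Vamp1 (-0.36 to 0.23) reach the size of the smallest called changes (0.33 for Stxbp6), and that of Vamp2 does not.

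Snap25, the plasma-membrane partner of syntaxin, lay just beyond the threshold. Its normalized counts were 22386, 21804, 25639, 25365 and 16415 in shControl and 26714, 34189, 31628, 23916 and 31530 in shOpn3. All shOpn3 libraries but library 4 lay above every shControl library. The log2 fold change was 0.41 (SE 0.135, limma adjusted p = 0.0513), and 4 of 5 same-numbered pairs were higher in shOpn3. Limma called Snap25 higher without shControl library 3 (0.47, adjusted p = 0.0422) or without shOpn3 library 4 (0.49, adjusted p = 0.0289), and in the authors' deposited table Snap25 had 0.41 with an adjusted p of 0.0241. With the replicate block it was not called (limma adjusted p = 0.0523). Under quantile normalization limma called Snap25 higher (0.51, adjusted p = 0.00771). Of 26 alternative fits, 6 called Snap25. Stx1a, a plasma-membrane syntaxin of synapses, had 835, 499, 410, 445 and 612 in shControl and 911, 641, 587, 539 and 802 in shOpn3. The groups overlapped while each of the 5 pairs was higher in shOpn3. Its log2 fold change of 0.33 had a limma adjusted p of 0.275 unpaired and 0.0116 with the replicate block, and limma-voom with sample quality weights, without the block, gave 0.52 (adjusted p = 0.0157). Stx1a was called in 3 of the 26 alternative fits.

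**Figure D2:**
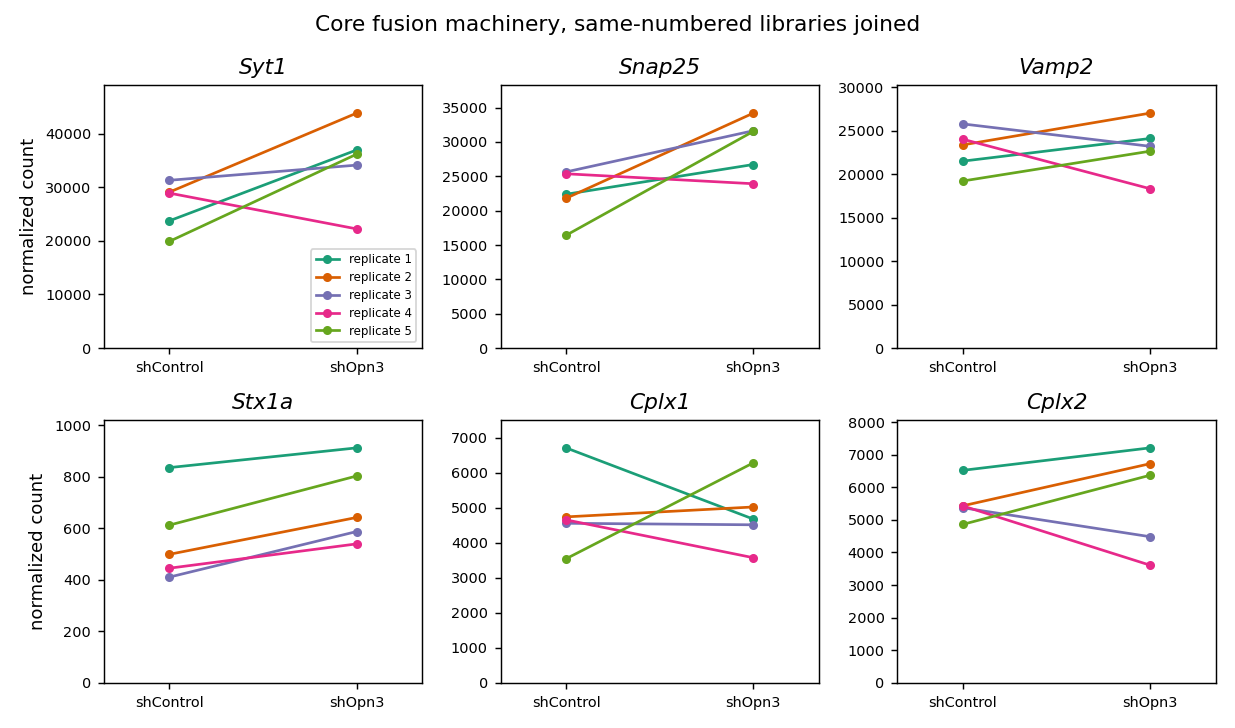
Normalized read counts (linear axes from 0) of Syt1, Snap25, Vamp2, Stx1a, Cplx1 and Cplx2 in shControl and shOpn3, with lines joining same-numbered libraries. Stx1a was higher in shOpn3 in 5 of 5 pairs and Snap25 in 4 of 5, while the lines of Vamp2 and Cplx1 run both ways.

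No syntaxin was called in the unpaired limma fit; most of the family serves the Golgi, endosomes and the plasma membrane of many cell types. The 14 tested syntaxins had a median log2 fold change of -0.01 and ranged from -0.27 for Stx6 to 0.33 for Stx1a. Limma gave 3 of them an unadjusted p under 0.05, beside 4994 of all 15597 genes. EdgeR called 0, beside 3025 of 15597 genes. DESeq2 called 2, Stx12 lower and Stx3 higher, beside 3705 of 15591 genes. Limma-voom with quality weights called 4, Stx12 and Stx18 lower and Stx1a and Stx3 higher, beside 5085 of 15597 genes. With the replicate block limma called Stx12 and Stx6 lower (adjusted p = 0.0451 and 0.0142) and Stx3 and Stx1a higher (adjusted p = 0.0220 for Stx3). Stx6 and Stx12 are endosomal syntaxins, and Stx3 is a plasma-membrane form. Stx5, which serves traffic between the endoplasmic reticulum and the Golgi, was the steadiest member in shOpn3, with 1310 to 1425 in shControl and 1267 to 1383 in shOpn3. The remaining syntaxins, Stx4, Stx2, Stx18, Stx16, Stx17, Stx7, Stx8 and Stx11, ran in log2 fold change from -0.21 for Stx4 of the plasma membrane to 0.26 for Stx11, known from lymphocytes. The 3 tested complexins gave 0 calls in limma, edgeR and DESeq2 and 0 unadjusted limma p-values under 0.05, while limma-voom with quality weights called Cplx3 higher. The 4 Snap proteins gave 0 calls in the main limma fit and in edgeR. They gave 1 call in DESeq2, 1 in limma-voom, 1 in limma under quantile normalization and 1 unadjusted limma p under 0.05, in each case Snap25. Snap29 and Snap47, SNAREs of many membranes, had log2 fold changes of -0.10 and 0.07, and Snap91, a clathrin adaptor that shares only the name, 0.10. The scarce Cplx3, a complexin of retinal ribbon synapses, had 7 to 47 normalized counts in shControl and 26 to 39 in shOpn3 (log2 fold change 0.64, limma adjusted p = 0.287).

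The synaptotagmin and Doc2 families, which hold the calcium sensors and relatives that do not bind calcium, were divided. In shOpn3, 5 of 16 tested synaptotagmins were lower, 1 was higher, and 2 of 3 Doc2 genes were higher, beside 18.8% of all genes called. The median log2 fold change was -0.32 over the synaptotagmins and 0.65 over the Doc2 genes. Syt2, a fast sensor of synchronous release, had 1384, 1042, 1198, 960 and 650 in shControl and 555, 828, 484, 322 and 780 in shOpn3. Only shControl library 5 dipped into the shOpn3 range. The mean went from 1047 ± 275 to 594 ± 210, 56.7% of shControl, and 4 of 5 pairs were lower (log2 fold change -0.85, SE 0.258, limma adjusted p = 0.0365). The call for Syt2 was lost without any one of 7 libraries (log2 fold change -0.87 to -0.65, limma adjusted p 0.0589 to 0.0902), all but shControl library 5 and shOpn3 libraries 2 and 5. Syt9, another fast sensor and one found on dense-core vesicles of endocrine cells, had 1182, 1484, 1545, 1331 and 785 in shControl and 854, 876, 791, 681 and 633 in shOpn3. Again it was shControl library 5 that reached into the shOpn3 range, and all 5 pairs were lower in shOpn3. Syt9 stood at 60.6% of shControl (log2 fold change -0.69, SE 0.171, limma adjusted p = 0.0142).

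Syt11, a synaptotagmin that does not bind calcium, had by far the tightest shControl group of the synaptotagmins called lower, at 44129, 41366, 44054, 41725 and 41381. Its shOpn3 libraries were at 38315, 34623, 26882, 24522 and 30864, all below every shControl library. The mean was 73.0% of shControl and the log2 fold change -0.47 (SE 0.115, limma adjusted p = 0.0134). Syt3, a high-affinity calcium sensor, had 1206, 767, 731, 755 and 850 in shControl and 772, 578, 428, 426 and 671 in shOpn3. The ranges overlapped at shOpn3 library 1, and all 5 pairs were lower. The log2 fold change of Syt3 was -0.60 (SE 0.187, limma adjusted p = 0.0428), lost without any one of 7 libraries (-0.64 to -0.47, adjusted p 0.0581 to 0.113), all but shControl library 3 and shOpn3 libraries 1 and 5. Syt14, a relative without calcium binding, had 569 to 750 in shControl and 430 to 567 in shOpn3. These ranges just failed to touch. Syt14 changed by -0.35 (SE 0.107, limma adjusted p = 0.0403), and its call was lost without any one of 7 libraries (-0.38 to -0.29, adjusted p 0.0507 to 0.0995), all but shControl libraries 1 and 5 and shOpn3 library 1, and under quantile normalization (adjusted p = 0.0603).

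Syt4, a synaptotagmin carried on dense-core vesicles of peptide-releasing neurons, had 15394, 20034, 23666, 22640 and 13042 in shControl and 14772, 16774, 12297, 10163 and 11459 in shOpn3. All 5 pairs were lower in shOpn3, but the groups overlapped because shControl libraries 1 and 5 were low. The log2 fold change of -0.52 had a limma adjusted p of 0.0627 unpaired and 0.0439 with the replicate block. Without shControl library 5 it was -0.65 (limma adjusted p = 0.0173) and without shOpn3 library 2 -0.62 (adjusted p = 0.0364). Syt7, the slow high-affinity sensor of asynchronous release, had 1112 to 1477 against 793 to 1330, lower in all 5 pairs (-0.28, limma adjusted p = 0.155 unpaired, 0.0263 with the block and 0.0441 without shOpn3 library 1). Of 26 alternative fits, 7 called Syt4 and 3 called Syt7. Syt6 also had shOpn3 values (439 to 513) that did not overlap shControl (513 to 769) without being called (-0.29, limma adjusted p = 0.105). Syt10 and Syt15 had log2 fold changes of -0.61 and -0.55 (limma adjusted p = 0.0913 and 0.0664), and Syt5, Syt12, Syt13 and Syt17 lay within -0.02 to 0.16.

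Of the synaptotagmins and Doc2 genes, 3 were called higher. Doc2a and Doc2b, high-affinity sensors tied to spontaneous and asynchronous release, went up together. Doc2a had 526, 300, 323, 307 and 520 in shControl and 974, 921, 668, 490 and 739 in shOpn3. Only shOpn3 library 4 stayed within the shControl range, and all 5 pairs were higher. At 191.8% of shControl, Doc2a showed the largest rise of any called member (log2 fold change 0.94, SE 0.219, limma adjusted p = 0.0101). Doc2b had 255, 239, 190, 195 and 233 against 444, 376, 288, 261 and 407, with no overlap (0.65, SE 0.159, limma adjusted p = 0.0132). Syt16, a synaptotagmin relative that lacks calcium binding, had 651, 641, 598, 576 and 594 in shControl and 1033, 1062, 948, 650 and 802 in shOpn3, and only shOpn3 library 4 touched the shControl range. Syt16 rose by 0.53 (SE 0.127, limma adjusted p = 0.0119). The third Doc2 gene, Doc2g, which lacks the calcium-binding residues of the other two, had 60 to 235 against 68 to 142 (-0.15, limma adjusted p = 0.809).

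Syt1, the main fast calcium sensor of forebrain synapses, had 23737, 29087, 31293, 28901 and 19901 in shControl and 36940, 43817, 34122, 22231 and 36159 in shOpn3. Every shOpn3 library but library 4 lay above all of shControl. The log2 fold change was 0.37 (95% interval -0.01 to 0.75, limma adjusted p = 0.170), and without shOpn3 library 4 it was 0.52 (adjusted p = 0.0246). Under quantile normalization limma also called Syt1 higher (adjusted p = 0.0440). With the replicate block it was not called (limma adjusted p = 0.132), nor in the authors' deposited table (DESeq2 adjusted p = 0.115). Of 26 alternative fits, 3 called Syt1. Syt1 and Syt2 can replace each other in many assays of synchronous release, and their ratio within libraries is given with the other ratios.

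**Figure D3:**
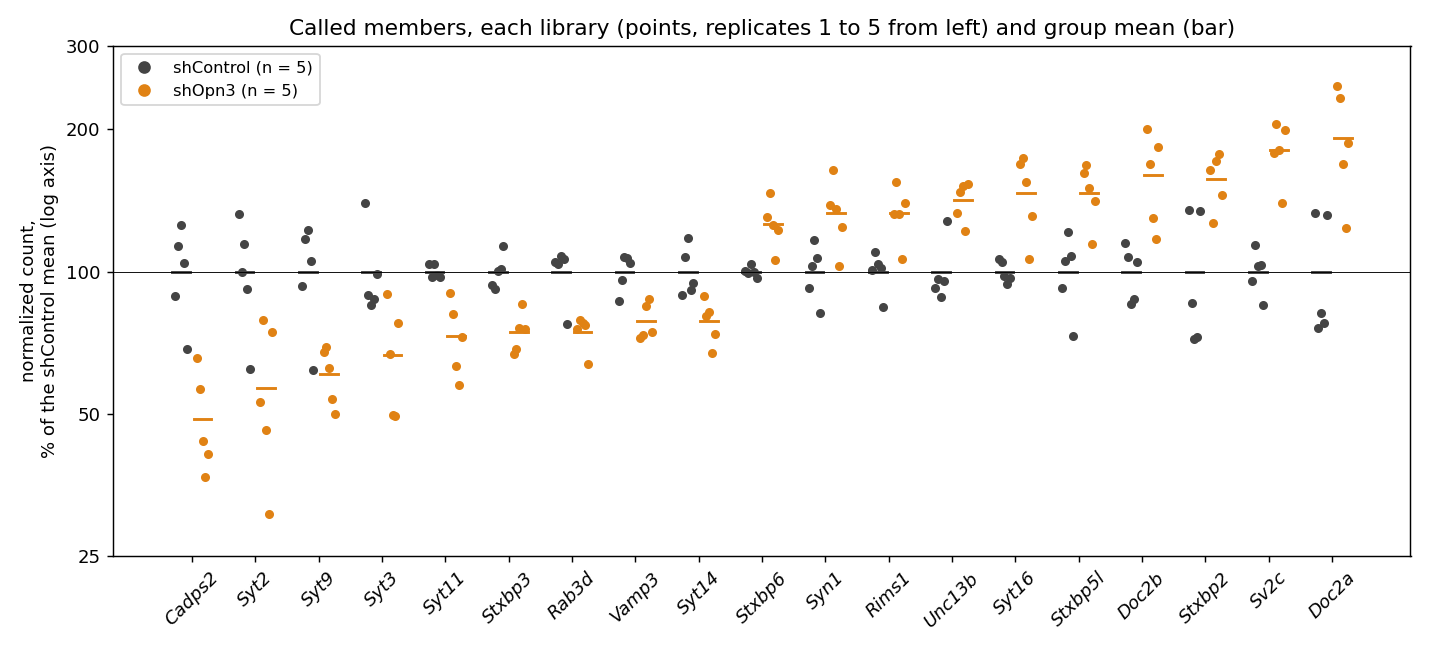
Each library of the 19 called members as a percentage of that gene's shControl mean (log axis), with shControl and shOpn3 libraries in separate colours. Cadps2, at 48.8% of shControl, lies lowest and Doc2a, at 191.8%, highest, and the shOpn3 and shControl points separate for 7 of the 19.

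The 10 priming and docking genes held the largest fall and 2 of the rises, beside 18.8% of all genes called. Cadps2 had 7406, 9451, 10474, 8679 and 5722 in shControl and 5488, 4705, 3661, 3076 and 3425 in shOpn3. Every shOpn3 library lay below every shControl library, and all 5 pairs were lower. The mean went from 8347 ± 1846 to 4071 ± 998 (SD, n = 5), 48.8% of shControl (log2 fold change -1.04, SE 0.183, limma adjusted p = 0.00226). Its relative Cadps, which acts in the same step, had 7585, 9487, 9912, 9173 and 5839 in shControl and 7552, 8097, 6889, 5235 and 7003 in shOpn3. These groups overlapped, and the log2 fold change of Cadps was -0.26 (interval -0.59 to 0.07, limma adjusted p = 0.268).

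Unc13b, one of the Munc13 priming proteins, had 888, 929, 852, 919 and 1230 in shControl and 1284, 1421, 1464, 1175 and 1478 in shOpn3. Only shControl library 5 reached into the shOpn3 range, and all 5 pairs were higher. Unc13b changed by 0.51 (SE 0.109, limma adjusted p = 0.00667). Unc13a, the main Munc13 of excitatory synapses, had 1173 to 1969 against 1265 to 1732 (0.09, limma adjusted p = 0.694). Unc13c, known from the cerebellum, had 1223 to 1810 against 1403 to 2275 (0.40, limma adjusted p = 0.0623 unpaired and 0.0422 with the block), and Unc13d, the Munc13 of blood cells, 82 to 141 against 76 to 162. Rims1, a scaffold of the active zone that binds Rab3 and Unc13 proteins, had 1947, 2127, 2008, 1968 and 1627 in shControl and 2558, 2992, 2564, 2053 and 2707 in shOpn3. Its lowest shOpn3 value, in library 4, was within the shControl range, and all 5 pairs were higher. Rims1 changed by 0.41 (SE 0.104, limma adjusted p = 0.0171), and its relative Rims2 by 0.27 (limma adjusted p = 0.152). The short forms Rims3 and Rims4, which hold only the last domain of the long ones, had log2 fold changes of -0.28 and -0.13 and were not called.

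Of the 7 syntaxin-binding proteins, 3 were called higher and 1 lower, beside 10.4% and 8.48% of all genes. Stxbp3, the Munc18 protein of many non-neuronal cells, had 3883, 3801, 4139, 4186 and 4682 in shControl and 2775, 2833, 3141, 3535 and 3124 in shOpn3, with no overlap. It fell to 74.5% of shControl (log2 fold change -0.43, SE 0.0844, limma adjusted p = 0.00439). Stxbp2, the Munc18 protein known from immune and epithelial cells, had 216, 137, 115, 116 and 215 in shControl and 263, 203, 274, 284 and 232 in shOpn3. The ranges overlapped at shOpn3 library 2, and all 5 pairs were higher. The log2 fold change of Stxbp2 was 0.69 (SE 0.200, limma adjusted p = 0.0298), lost without any one of 7 libraries (0.59 to 0.72, adjusted p 0.0512 to 0.0755), all but shControl libraries 1 and 5 and shOpn3 library 2. Microglial marker sums, given above, moved the same way as Stxbp2, and their part in it was not tested.

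Among them were 2 inhibitors of SNARE assembly that rose. Stxbp5l, the second tomosyn, which occupies syntaxin in place of the vesicle SNARE, had 1023, 1165, 1342, 1196 and 810 in shControl and 1791, 1859, 1661, 1263 and 1557 in shOpn3. Only shOpn3 library 4 fell within the shControl range. Stxbp5l rose by 0.56 (SE 0.140, limma adjusted p = 0.0150), while the first tomosyn, Stxbp5, had 6444 to 8829 against 5705 to 7463 (-0.21, interval -0.42 to 0.01, limma adjusted p = 0.177). Stxbp6, or amisyn, had the smallest shControl spread of all members, with 875, 867, 905, 870 and 847, and 1139, 1280, 1097, 924 and 1070 in shOpn3. No value overlapped, and the log2 fold change was 0.33 (SE 0.0868, limma adjusted p = 0.0197). The call for Stxbp6 was lost without both libraries numbered 1, 2, 3 or 5 (limma adjusted p 0.0566 to 0.0943). Stxbp4, a syntaxin-binding protein studied in insulin-regulated traffic, was not called (0.01).

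Sv2c showed the smallest adjusted p of the members. This vesicle glycoprotein is known for its enrichment in the basal ganglia and other deep forebrain nuclei. Its normalized counts were 829, 991, 893, 896 and 740 in shControl and 1550, 1780, 1569, 1212 and 1734 in shOpn3. No value overlapped, all 5 pairs were higher, and the mean rose from 870 ± 93.0 to 1569 ± 223, 180.4% of shControl (log2 fold change 0.84, SE 0.114, limma adjusted p = 0.000568). Syn1, a synapsin that tethers vesicles to actin in the reserve pool, had 6648, 7400, 8384, 7694 and 5898 in shControl and 9947, 11829, 9755, 7401 and 8969 in shOpn3. All shOpn3 libraries but library 4 lay above shControl. The log2 fold change of Syn1 was 0.40 (SE 0.126, limma adjusted p = 0.0412), lost without any one of 8 libraries (0.32 to 0.43, adjusted p 0.0579 to 0.0928), all but shControl library 3 and shOpn3 library 4. Syn2 had 5812 to 7595 against 4599 to 8193 (-0.15, limma adjusted p = 0.513), and Syn3 208 to 334 against 295 to 413 (0.19).

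Syn1 and Vamp1 are the members whose promoters hold the full cyclic AMP response element, TGACGTCA, the binding site of the transcription factor CREB; their promoters are shown for that reason. The element reads the same on both strands. RefSeq (GRCr8) gave a promoter, from 250 bases before to 50 bases after the start, for 58 of the 75 members, and 2 of these held it, beside 612 of 33469 promoters (1.83%). The stretches below lie upstream of the start, 5′ to 3′ on the plus strand, with the element in capitals. It begins 190 bases before the start of Syn1 (chrX:3725509-3725608) and 71 bases before that of Vamp1 (chr4:159698777-159698876). A match describes letters, not binding. Of these genes Syn1 was called higher in shOpn3 and Vamp1, at -0.07, was not called.
Syn1: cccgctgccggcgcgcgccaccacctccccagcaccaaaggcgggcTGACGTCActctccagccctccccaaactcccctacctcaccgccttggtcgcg
Vamp1: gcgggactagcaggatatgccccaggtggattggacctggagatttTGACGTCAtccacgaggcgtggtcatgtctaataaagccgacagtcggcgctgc

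Of the 7 Vamp and 4 Rab3 genes, 1 each was called lower, beside 8.48% of all genes, and neither is the main neuronal form. Vamp3, or cellubrevin, a SNARE of recycling endosomes in many cell types, had 3470, 3846, 4297, 4276 and 4177 in shControl and 2910, 2945, 3398, 3517 and 2989 in shOpn3. Only shOpn3 library 4 passed the lowest shControl value, and all 5 pairs were lower (log2 fold change -0.35, SE 0.0846, limma adjusted p = 0.0130). Vamp8, an endosomal and granule SNARE outside neurons, had 495 to 936 against 532 to 862 (0.06, limma adjusted p = 0.848), and Vamp4, Vamp5 and Vamp7 lay within -0.19 to -0.01. Rab3d, a Rab3 GTPase best known from granules of secretory gland cells, had 1106, 1094, 1135, 1122 and 814 in shControl and 795, 834, 819, 813 and 671 in shOpn3. The shControl library 5 alone lay among the shOpn3 values. Rab3d changed by -0.42 (SE 0.106, limma adjusted p = 0.0167), whereas Rab3a, the main form on synaptic vesicles, had 7677 to 9554 against 6150 to 9840 (-0.12, limma adjusted p = 0.519). Rab3b had 1655 to 1881 against 1540 to 1942 (-0.06, limma adjusted p = 0.637), and Rab3c 2115 to 3289 against 1964 to 3385 (interval -0.34 to 0.33).

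Within each library, several called members were set against a close relative, which takes out what moves both genes alike. These 11 pairs were chosen after the values were seen, so the log2 ratios of normalized counts are a description with no test, and they compare changes, not levels, between genes of different length. Cadps2 over Cadps had log2 ratios of -0.03, -0.01, 0.08, -0.08 and -0.03 in shControl and -0.46, -0.78, -0.91, -0.77 and -1.03 in shOpn3. The shControl ratios thus stayed within a narrow band although Cadps2 itself ran from 5722 to 10474 in those libraries, and every shOpn3 ratio lay below it. Syt2 over Syt1 changed by -1.22 in log2 ratio, from -4.69 ± 0.34 to -5.91 ± 0.27. Sv2c over Sv2a changed by 0.95, Stxbp5l over Stxbp5 by 0.77 and Syn1 over Syn2 by 0.55. The groups did not overlap for these 5 ratios. They overlapped for the other 6, with differences of 0.42 for Unc13b over Unc13a, 0.29 for Doc2a over Doc2b, 0.13 for Rims1 over Rims2, 0.05 for Syt11 over Syt4, -0.29 for Rab3d over Rab3a and -0.36 for Vamp3 over Vamp2. The first gene of each ratio was already called, which in itself favours separation. No share over other gene pairs was computed to set beside the 5 of 11.

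**Figure D4:**
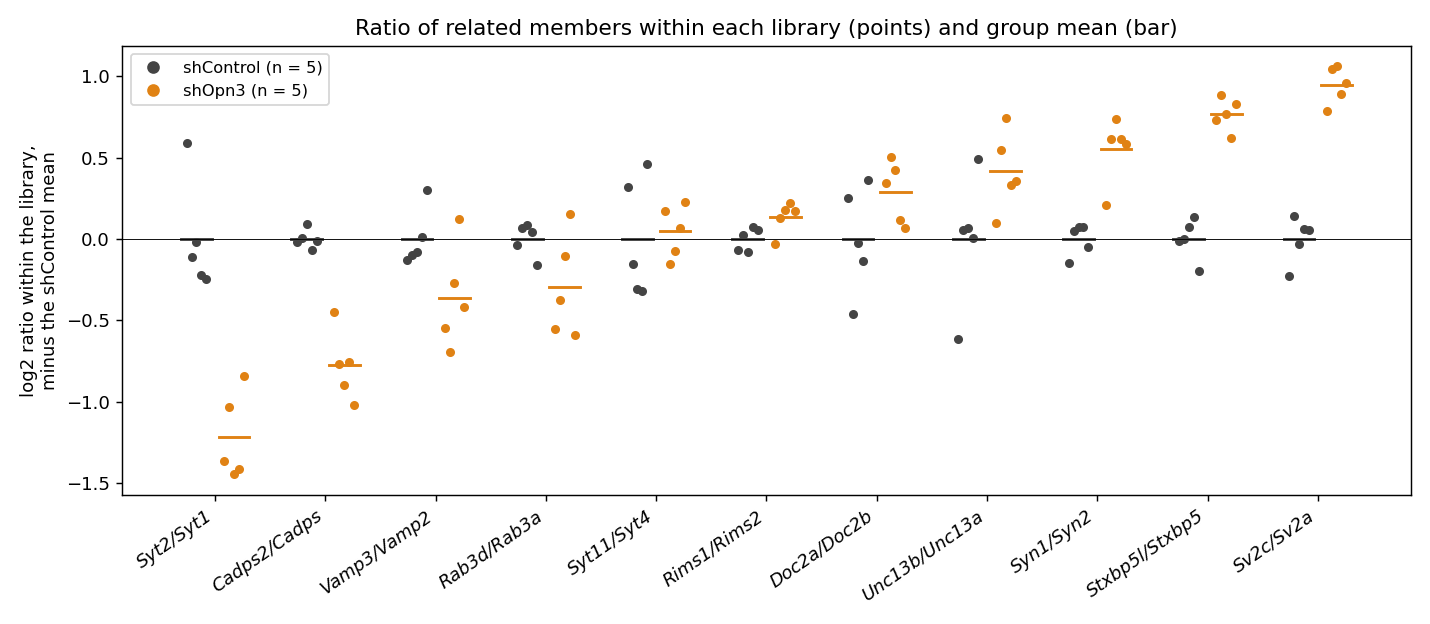
Log2 ratio of a called member to its relative within each library, minus the shControl mean of that ratio, for 11 pairs. The shOpn3 points lie apart from the shControl points for Cadps2/Cadps, Syt2/Syt1, Sv2c/Sv2a, Stxbp5l/Stxbp5 and Syn1/Syn2, and mix with them for the other 6. The pairs were chosen after the values were seen, and no share over other gene pairs was computed.

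The members shifted together in some libraries. Relative to their own group's mean, the members' median deviation on the log2 scale was -0.21 in shOpn3 library 4, where 17 of 73 members lay above the group mean, and -0.10 in shControl library 5, where 22 of 73 did. It was 0.12 in shOpn3 library 2 and 0.08 in shOpn3 library 1, with 49 and 50 of 73 above. The same median over all genes stayed between -0.01 and 0.01 in all 10 libraries. Scaling each library by a size factor holds that median near 0 in itself, so it is no test of the members' shifts. The general neuronal marker sum was lowest of its group in the same libraries, 98487 in shOpn3 library 4 and 111485 in shControl library 5, and highest of all in shOpn3 library 2, at 173938. Its part in these shifts was not tested. Without shOpn3 library 4, 20 members were called, 13 higher and 7 lower, beside 2528 of all 15597 genes. The coefficient of variation of the members had a median of 15.0% in shControl, from 2.40% for Stxbp6 to 69.1% for the scarce Cplx3, and of 14.4% in shOpn3, from 3.54% for Stx5 to 35.4% for Syt2.

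Exocytosis genes outside these name families were counted from a separate list. Of 59 such names, on 60 rows, 56 rows were tested, and 4 were called higher and 7 lower (19.6%, a share near the 18.8% of all genes), with a median log2 fold change of -0.01. With the replicate block 10 were higher and 10 lower, beside 4726 of all 15597 genes called (30.3%). Under quantile normalization 7 were higher and 5 lower, beside 2973 of all genes. Without shControl library 2, shOpn3 library 2 or shOpn3 library 3, 7 in all were called. Calls over all genes were 2309, 2618 and 1987 in these fits. Synpr, synaptoporin, a synaptic vesicle membrane protein, had 1338, 1312, 1277, 1553 and 1263 in shControl and 3432, 3814, 5282, 2366 and 3860 in shOpn3. No value overlapped, and its log2 fold change of 1.43 exceeded that of any member (SE 0.166, limma adjusted p = 0.000317). Pclo, which encodes the active-zone scaffold piccolo, changed by 0.58 (SE 0.126, limma adjusted p = 0.00744), and its shOpn3 values (6325 to 9821) overlapped shControl (4710 to 6447). Prrt2, a presynaptic protein of the SNARE pathway, changed by 0.46 (limma adjusted p = 0.0399, lost without any one of 7 libraries, 0.0540 to 0.0964, all but shControl libraries 1 and 5 and shOpn3 library 4).

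The largest fall of that list was in Sytl4, granuphilin, which docks dense-core granules to the plasma membrane in endocrine cells. It had 495, 508, 501, 432 and 430 in shControl and 264, 253, 255, 346 and 213 in shOpn3, with no overlap (log2 fold change -0.84, SE 0.126, limma adjusted p = 0.000946). Exoc8, a subunit of the exocyst tether, changed by -0.62 (SE 0.152, limma adjusted p = 0.0134). Hid1, a Golgi protein needed to form dense-core vesicles, had 2582 to 3778 against 1910 to 2588 (-0.44, SE 0.114, limma adjusted p = 0.0173, and 0.0520 without shOpn3 library 3). The remaining calls of the list, Napb higher and Sypl1, Tprg1l, Exoc3 and Gosr2 lower, are not described further.

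The authors' deposited table gave 23 of the 75 members an adjusted p under 0.05, 13 higher and 10 lower (30.7%), beside 21.3% of all genes with an adjusted p there. These 23 included all 19 members called by limma. Both tests were run on the same libraries, so the second gives no independent support to the first.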

How the data were processed

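RNA from single supraoptic nuclei (5 shControl, 5 shOpn3) was sequenced. Per the submitters' processing notes the authors used FastQC, STAR, featureCounts and DESeq2. Versions, genome build, annotation and strand setting are not given in the sources used here, so reads of overlapping genes may be shared. The deposited signal values are read counts divided by a size factor per library; whole reads were recovered for 100% of values in every library (tolerance 0.001). The authors' deposited table also holds their log2 fold changes, p-values and Wald score (not used).

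Genes with a mean of at least 10 normalized counts were tested with limma 3.58.1 (R 4.3.3), a trended fit to log2(value + 1) with group as the only term, two-sided, with Benjamini-Hochberg adjustment over all 15597 genes and a threshold of 0.05. This understates changes of low genes. The script was tested on simulated data. Alternatives were edgeR 4.0.16, DESeq2 1.42.0, limma-voom with sample quality weights, other pseudocounts, filters and scalings, and libraries left out.

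Replicate numbers were taken to pair the samples in the counts of pairs and in the replicate block, but not in the main fit. Deviations from the group means correlated at 0.439, 0.390, 0.402, 0.121 and 0.409 between same-numbered libraries (median -0.205 for different numbers). Deviations sum to 0 within a group, so positive values for equal numbers in themselves push those for different numbers below 0. Over the members alone the values were 0.19, 0.48, 0.16, -0.27 and 0.38, below 0 for number 4. The labels place both hairpins in each rat, on opposite sides, but do not say that equal numbers are 1 rat.

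The naming rule picked a list of core members, the 8 largest falls and rises among called members, and the 3 largest falls and rises among called genes of the other exocytosis list. Syt14 and Stxbp6, called but not within those limits, were described after their values were seen. These genes, with Opn3, Avp and Oxt, were checked for outlying libraries and followed through all alternative fits. Other members described here, such as Stx3 and Unc13c, were not part of those checks. Members and lists were chosen with earlier results of these data known. Rows with no gene name (388) were not used to choose members. Values of 2 members are not reported here; they count in the totals.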

Additional observations from a re-analysis of the deposited data

Results flagged for a closer look

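The genes picked by the naming rule, with Syt14, Stxbp6, Opn3, Avp and Oxt, were examined for 1 library far from the rest. This was done over the 5 libraries of each group, in 90 groups of values, of which 8 stood out. Chance would give about 4.5 at a rate of 1 in 20. Among members, shControl library 5 was the far one for Rab3d, where it was low (814 normalized counts, next value 1094), and for Unc13b, where it was high (1230, next 929). The same library had the shControl Opn3 level that lay within the shOpn3 range. In shControl library 1, Syt3 (1206, next 850), Unc13a (1969, next 1326), Hid1 (3778, next 2878) and Oxt (56716, next 21354) were high. Rab3d was low in shOpn3 library 5 (671, next 795), and Synpr was high in shControl library 4 (1553, next 1338). Without shControl library 5 the calls for Rab3d and Unc13b were kept, with log2 fold changes of -0.51 and 0.60 (limma adjusted p = 0.0021 and 0.0012). When both libraries of a number were left out, Rab3d lost its call for number 1, 2, 3 or 4 (limma adjusted p 0.0514 to 0.0737). Unc13b lost its call for number 3 (limma adjusted p = 0.0503).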

How the results depend on the processing

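The number of members called was 19 with pseudocounts of 0.5 and 8, with a filter at a mean of 1 or 50, with TMM scaling and with edgeR. It was 22 under quantile normalization, 24 with DESeq2, 26 with the replicate block, 27 with edgeR and the block, and 32 with limma-voom and quality weights. Leaving out single libraries gave 14 to 20 members, and leaving out both libraries of a number 7 to 16. For the other exocytosis genes the count of 11 became 20 with the replicate block, 18 with edgeR and the block and 23 with voom, and 6 to 13 when libraries were left out. For all genes the count of 2940 became 2973 under quantile normalization, 3705 with DESeq2 and 4726 with the block. It was 4777 with edgeR and the block, 5085 with voom, and 1604 to 3056 when libraries were left out. The fall of Opn3 kept its direction and call in all 26 alternatives. Of 494 alternative values for the 19 called members 79 lost the call and 0 reversed. Cadps2, Stxbp3 and Sv2c kept their call in every alternative. Of 442 values for the 17 uncalled members picked by the naming rule, 24 gained a call. Members described outside that rule are not in this count. With the replicate block, 7 members gained a call, Stx1a, Stx3, Stx6, Stx12, Syt4, Syt7 and Unc13c, and 0 lost one. Over scalings the all-gene median log2 fold change was -0.035 to -0.019. The 132 alternative values of the 11 ratios, chosen after seeing the data, moved by less than 1 SD. These alternatives were other pseudocounts and single libraries left out. Leaving out 1 of 5 libraries cannot move a group mean by 1 SD, so this does not measure how firm the ratios are. Single-library counts rest on 4 against 5 samples.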
